A study of Mus musculus with 6 samples.

Results

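The nuclear-encoded genes of the mitochondrial respiratory chain were examined in maps of H3K79me2, histone H3 dimethylated at lysine 79, from N2a cells (Neuro-2a, an established mouse neuroblastoma line). Members were the GENCODE M21 protein-coding genes of chromosomes 1 to 19 whose symbols begin with Nduf followed by a, b, c, s or v, with Uqcr, with Cox followed by 4 to 8, or with Atp5, together with Sdha, Sdhb, Sdhc and Sdhd. The rule used names alone and found 91 entries with 90 distinct symbols among 20807 genes. They comprised 36 complex I subunits or close paralogues, 8 complex I assembly factors (Ndufaf1 to Ndufaf8, which build the complex but are not part of it), 4 entries for complex II, 8 for complex III, 17 for complex IV and 18 for complex V. Atp5o was entered under 2 gene identifiers, the second of which is a readthrough model of 242585 bp lying to 97.8% under other genes.

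The study compared cells transfected with a control hairpin plasmid, pLKO.1-shCTR (CTR), with cells transfected with pLKO.1-shNpm1 (NPM1 KD), which carries a single hairpin against Npm1, the gene of the nucleolar chaperone nucleophosmin. Both groups were cultured for 3 days in vitro, and puromycin selection is described for the knockdown experiments. Each group had 2 ChIP-seq libraries, which the study describes as separate passages transfected in separate batches, and 1 pooled input that enters no comparison here. For every library the authors deposited a broad and a narrow peak list. The lists hold no reading of Npm1 RNA or protein that would check the knockdown. The study itself reports lower NPM1 protein on immunoblots of both replicates.

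The respiratory chain passes electrons from NADH (complex I) and succinate (complex II) through complex III and cytochrome c to oxygen at complex IV, and complex V (ATP synthase) uses the proton gradient to make ATP. Most subunits are encoded in the nucleus and are made in almost every cell, but several complex IV subunits exist as a widely expressed isoform and a second isoform limited to muscle, testis or other tissues. H3K79me2 is laid down by DOT1L and is typically found over the first part of transcribed genes, so its cover is often read alongside transcription.

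Cover was measured as the share of a window, the gene body plus 3 kb upstream of the start, that lay under broad peaks. The strength of the mark was measured as the highest fold enrichment over local background of any narrow peak touching that window. Both rest on enrichment over the background of the same library. A change of the mark over the whole genome by the same factor therefore cannot be measured with them. Broad peaks covered 236 Mb and 223 Mb in CTR libraries 1 and 2, and 253 Mb and 244 Mb in NPM1 KD libraries 1 and 2. The median background under narrow peaks was 11.9, 7.65, 8.99 and 11.8 piled-up fragments in the same order, recovered from the fold and p of each peak, so CTR library 2 had the lowest background. Of the sympathetic neuroblast markers, Hand2, a transcription factor of that lineage, was covered over 100% of its window in all 4 libraries, whereas Dbh, the noradrenaline-forming enzyme, had no cover and Th, the first enzyme of that pathway, had between 2.103% and 9.87%. Of 4 neuronal markers 3 were covered in all libraries and Nefl was at 0. None of 7 markers of muscle, liver, blood and astrocytes (Myod1, Myog, Alb, Ptprc, Cd3e, Gfap and Aqp4) had any cover.

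H3K79me2 lay over nearly the whole set. Broad peaks reached 85, 85, 86 and 85 of the 91 entries in CTR 1, CTR 2, NPM1 KD 1 and NPM1 KD 2, against 52.5% of all genes with a peak in all 4 libraries. The median member had 65.2% and 65.5% of its window covered in the CTR libraries and 70.8% and 70.0% in the NPM1 KD libraries. The same medians over all genes were 5.50%, 3.85%, 7.14% and 5.56%, since 44.6% of genes had no cover in any library. Among genes with a peak in every library, the comparison was 70.7%, 67.9%, 74.3% and 72.5% for 85 members with 50.2%, 46.7%, 54.7% and 51.5% for 10915 genes. Members were shorter, with a median length of 7800 bp against 24140 bp in these subsets. Within length classes the median of the 4-library mean cover was 61.5% for 24 members under 5 kb, where it was 61.7% for all such genes. It was 74.2% against 61.2% from 5 to 10 kb, 79.7% against 54.3% from 10 to 20 kb, and 51.5% against 43.8% at 20 kb and more. The shortest members therefore showed the cover usual for their length, and the higher values were found among longer ones. A narrow peak region common to both replicates was present at 85 members in CTR and 84 in NPM1 KD, compared with 53.0% and 53.5% of all genes. The member with such a region in CTR alone was Ndufa4l2, described below with the isoforms.

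**Figure D1:**
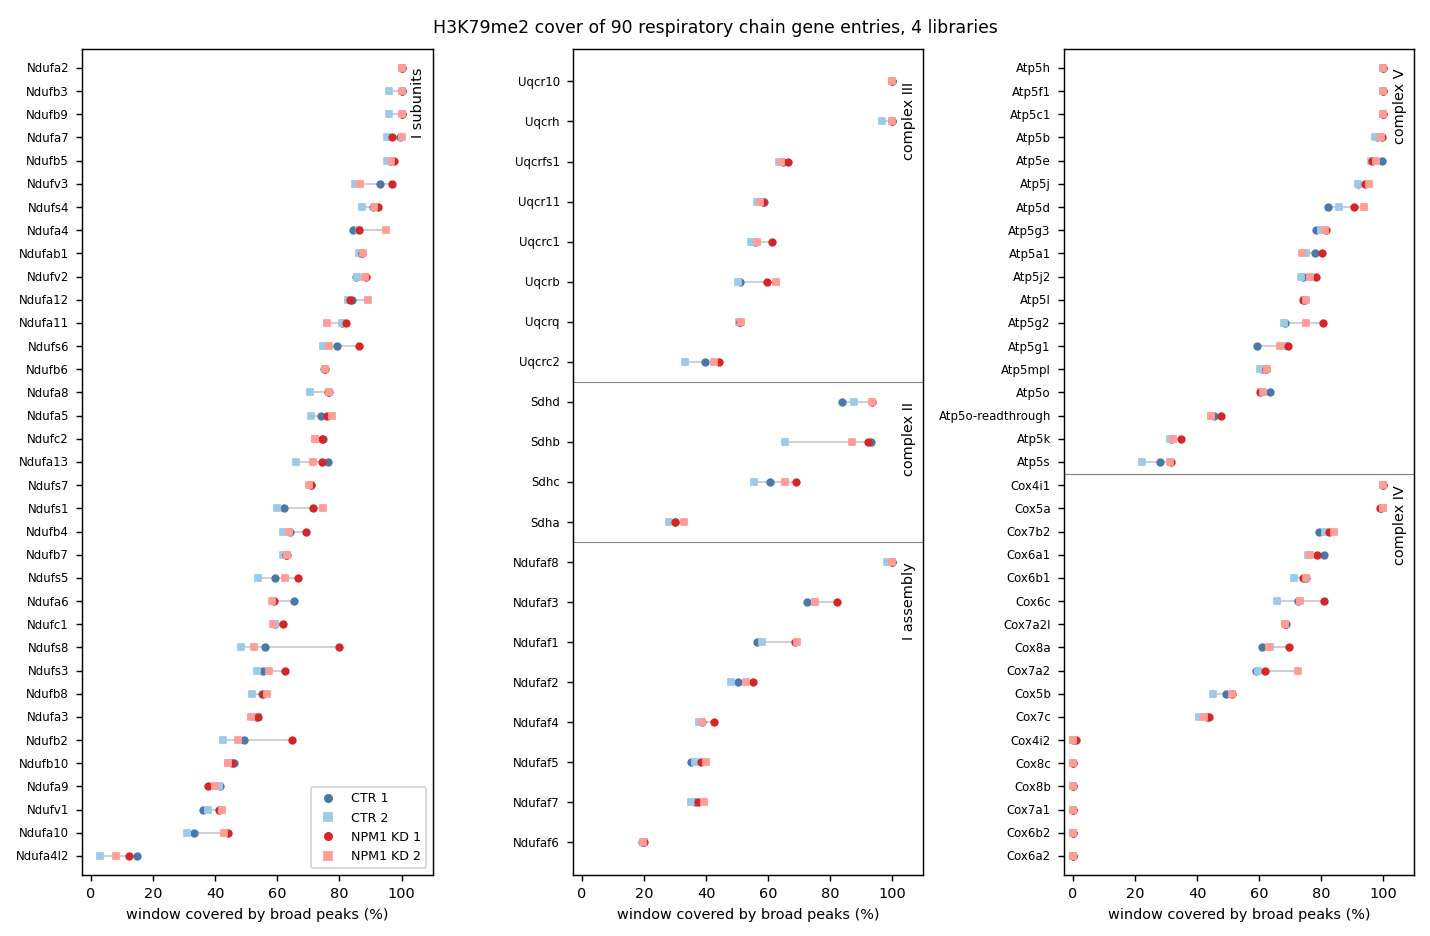
Share of each window (gene body plus 3 kb upstream) under broad H3K79me2 peaks in percent, for 90 of the 91 entries grouped by complex, with 1 point per library and a grey line over the range of the 4 libraries. The members at 0 are all complex IV isoforms, and 6 members sit at 100 in every library.

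Complex I was covered in every subunit. Among the core subunits that carry electrons from NADH to ubiquinone, Ndufv2 was covered over 85.2%, 85.5%, 88.5% and 88.4% of its window in CTR 1, CTR 2, NPM1 KD 1 and NPM1 KD 2. Ndufs1, the largest subunit, had 62.1%, 59.9%, 71.5% and 74.7%, and Ndufv1, which binds NADH and FMN, had 36.2%, 37.6%, 41.2% and 42.3%. At each of these 3 genes both NPM1 KD values exceeded both CTR values. That order held at 13 of the 36 complex I subunits (36.1%), against 47.0% of all genes tested. Ndufs7, which holds an iron-sulfur cluster next to the ubiquinone site, had 70.7%, 70.6%, 70.8% and 70.0%, almost the same value in each library. Ndufs3, a scaffold of the same arm, had 55.3%, 53.5%, 62.6% and 57.5%, without overlap between the groups. Ndufs8, which holds 2 further iron-sulfur clusters, had 56.1%, 48.1%, 79.9% and 52.6%, where NPM1 KD 1 stood apart from its replicate. Of the remaining subunits, Ndufa2 was covered over 100% in all libraries, although 56.8% of its window also belongs to other genes. Ndufs4, a small accessory subunit in a gene of 100464 bp, was covered over 90.7%, 87.2%, 92.3% and 91.0%. Such long cover was not general, since Ndufa10 (34851 bp) had 33.1%, 30.9%, 44.0% and 42.8%.

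The assembly factors had a lower median cover, between 42.8% and 48.8% across libraries, than the subunits of complex I, between 70.6% and 74.96%. They ranged from 19.7% at Ndufaf6 to 99.6% at Ndufaf8 as means over 4 libraries. Ndufaf2, a gene of 155909 bp, was covered over 50.4%, 47.9%, 54.9% and 52.9%, which corresponds to 80072, 76140, 87319 and 84046 bp. Among other assembly and electron carrier genes, a list of 42 genes that holds Surf1, Sco1, Bcs1l and the like, 41 had cover in all libraries and the median of the mean cover was 55.3%.

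Complex II, which is also an enzyme of the tricarboxylic acid cycle, had cover at each of its 4 genes. Sdha, the flavoprotein that oxidises succinate, had the smallest share, 29.9%, 28.0%, 30.0% and 32.9% of a gene of 28027 bp. Sdhb, the iron-sulfur subunit, had 93.0%, 65.5%, 92.1% and 87.0%, with CTR 2 far below its replicate. Sdhc and Sdhd anchor the complex in the membrane. Sdhc had 60.6%, 55.3%, 68.9% and 65.4%, and Sdhd had 83.7%, 87.7%, 93.4% and 93.5%, so that the groups did not overlap at either anchor gene, nor at Sdha. At Sdhb they did overlap, over a CTR spread of 79.3% ± 19.5 (SD, n = 2). Groups without overlap and higher in NPM1 KD were found at 47.0% of all genes tested.

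All 8 complex III genes were covered. Uqcr10, a small accessory subunit, was covered over 100% of its window in all libraries, and the Rieske iron-sulfur protein gene Uqcrfs1 over 64.7%, 63.4%, 66.3% and 64.2%. The core proteins Uqcrc1 and Uqcrc2 support the complex on its matrix side. Uqcrc1 had 55.6%, 54.5%, 61.2% and 56.5%, and Uqcrc2 had the lowest mean of the complex with 39.6%, 33.3%, 44.1% and 42.6%. The values of all complex III genes other than Uqcr10 and Uqcrh lay between 33.3% and 66.3%.

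All 18 complex V entries were covered, with medians between 74.7% and 80.5% across libraries. Atp5c1, the gene of the gamma shaft of the rotor, and Atp5f1, a peripheral stalk gene, were covered over 100% in every library, as was Atp5h. Atp5b, the catalytic beta subunit, had 97.8%, 97.4%, 99.6% and 99.2%. Atp5a1, its alpha partner, had 77.98%, 74.98%, 80.3% and 73.7%, and differed more between replicates than between groups. The genes of the c ring encode the same mature peptide: Atp5g3 had 78.4%, 80.1%, 81.5% and 81.1%, Atp5g2 had 68.2%, 67.9%, 80.7% and 75.1%, and Atp5g1 had 59.5%, 68.7%, 69.3% and 66.7%. Each of the 3 was marked. The lowest cover of the complex was at Atp5s, a coupling factor gene, with 28.1%, 22.3%, 31.5% and 31.2%.

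Complex IV was the only complex with uncovered genes, and all of them are isoforms of limited tissue range. Cox6a2, Cox7a1 and Cox8b (heart and skeletal muscle isoforms) and Cox6b2 and Cox8c (testis isoforms) had 0 bp under broad peaks in all 4 libraries. Cox4i2, a lung and oxygen-responsive isoform, had 0%, 0%, 1.10% and 0%. Their widely expressed partners were all covered. Cox4i1 had 100% in each library, over a window that lies wholly under a second gene model, Gm27021. Cox6a1 had 80.9%, 75.7%, 78.8% and 76.5%, and Cox6b1 had 75.1%, 71.3%, 74.2% and 74.96%. Cox7a2 had 59.0%, 59.5%, 61.8% and 72.5%, and Cox8a had 60.8%, 63.4%, 69.5% and 63.1%. The difference between partners exceeded the whole range of the 4 libraries in each pair, and within each library it had the same direction. Outside complex IV, Ndufa4, now counted as a complex IV subunit, had 84.4%, 86.4%, 86.5% and 95.0%, whereas its hypoxia-induced paralogue Ndufa4l2 had 14.8%, 3.03%, 12.2% and 8.04%. In the CTR libraries a narrow peak of 29.1-fold and 26.7-fold touched the window of Ndufa4l2, but its summit lay outside the window. In NPM1 KD 1 the strongest narrow peak was 3.00-fold with its summit inside, and in NPM1 KD 2 there was none. Limited tissue range did not go with absence everywhere, because Cox7b2, a testis isoform in a gene of 105382 bp, was covered over 79.2%, 81.1%, 82.6% and 84.1%. Cox5a, a complex IV subunit without a paired isoform here, had 99.1%, 100%, 98.9% and 100%. Cox7b, the widely expressed partner of Cox7b2, is on chromosome X and is not analysed here.

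**Figure D2:**
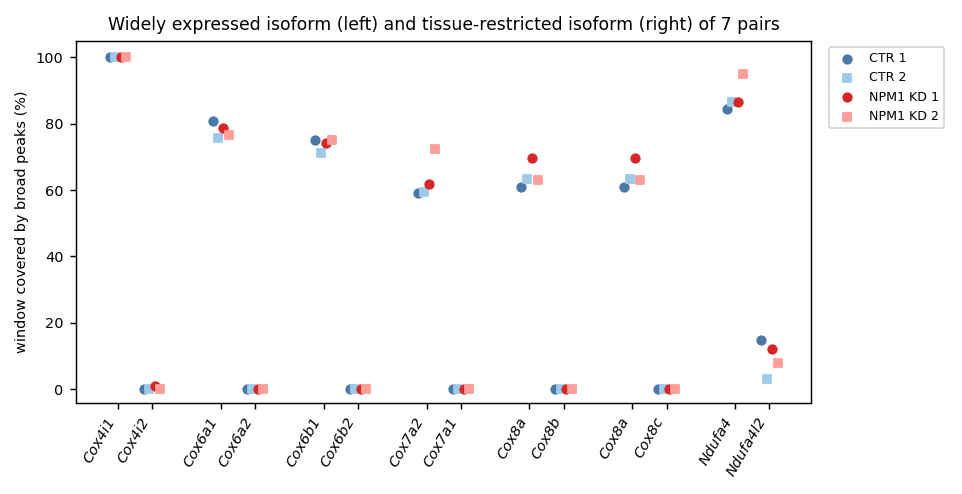
Share of the window under broad peaks in percent for 7 pairs of a widely expressed isoform (left of each pair) and an isoform of limited tissue range (right), 1 point per library, with Cox8a drawn beside each of its 2 partners. All widely expressed isoforms lie between 59.0 and 100, and the others between 0 and 14.8.

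Promoter sequences of both partners were at hand for 3 pairs and not for the others. In these 3 pairs the promoters differ in the density of CpG, the dinucleotide that is concentrated in the promoters of broadly expressed genes. The 120 bases next to the start that lie outside every annotated exon are shown for 3 pairs to make this visible, from RefSeq on build GRCm38.p6, 5′ to 3′ on the gene's strand, with each CpG in capitals. Cox8a is from chr19:7217617-7217736, Cox8b from chr7:140900447-140900566, Cox7a2 from chr9:79759879-79759998, Cox6b1 from chr7:30626152-30626271 and Cox6b2 from chr7:4753095-4753214, all on the minus strand, and Cox7a1 is from chr7:30184024-30184143 on the plus strand.
Cox8a: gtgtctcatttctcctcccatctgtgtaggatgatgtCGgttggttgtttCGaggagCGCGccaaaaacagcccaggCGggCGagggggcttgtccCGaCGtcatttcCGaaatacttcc
Cox8b: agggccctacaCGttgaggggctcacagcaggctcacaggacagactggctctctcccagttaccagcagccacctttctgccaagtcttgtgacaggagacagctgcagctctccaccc
Cox7a2: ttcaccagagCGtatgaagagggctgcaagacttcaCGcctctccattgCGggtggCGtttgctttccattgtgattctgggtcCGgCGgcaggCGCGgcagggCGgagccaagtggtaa
Cox7a1: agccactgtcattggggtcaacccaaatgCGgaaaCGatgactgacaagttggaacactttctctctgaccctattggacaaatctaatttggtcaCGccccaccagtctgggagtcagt
Cox6b1: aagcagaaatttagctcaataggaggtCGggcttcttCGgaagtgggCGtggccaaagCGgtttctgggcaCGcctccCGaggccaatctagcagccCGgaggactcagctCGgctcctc
Cox6b2: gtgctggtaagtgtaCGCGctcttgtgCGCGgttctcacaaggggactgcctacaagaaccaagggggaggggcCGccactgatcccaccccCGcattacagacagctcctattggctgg

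Within these stretches Cox8a held 9 CpG and Cox8b 1, Cox7a2 held 9 and Cox7a1 3, and Cox6b1 held 8 and Cox6b2 6. Over the 300 bases from 250 before to 50 after the start, the observed over expected CpG ratio was 0.842 for Cox8a and 0.115 for Cox8b, 0.833 for Cox7a2 and 0.3329 for Cox7a1, and 0.807 for Cox6b1 and 0.432 for Cox6b2. Of the 91 entries, 73 had such a promoter sequence, 2 of them through an alias. The start in these sequences is that of RefSeq, which lay up to 3643 bp (Atp5d) from the annotated start used for cover. In the 3 pairs shown it lay at most 37 bp away. The median ratio was 0.838 for the 70 of them with broad peaks in every library, and the lowest 3 of all 73 values belonged to the uncovered Cox8b, Cox7a1 and Cox6b2. Over 15704 genes with a promoter sequence the median was 0.795 for genes covered in all libraries and 0.240 for genes covered in none, so this difference was shared with the rest of the genome. Cox7b2, which was covered, had a ratio of 0.564.

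NRF1 and ETS factors such as GABP are known regulators of respiratory chain genes, and their motifs were counted on both strands of the 300 bases. GCGCNTGCG (NRF1) occurred in 23 of 73 member promoters (31.5%), against 9.54% of all genes and 15.97% of genes covered in every library. CCGGAAG (ETS) occurred in 17 (23.3%), against 12.6% and 20.7%, and ATGGCGGC (YY1) in 7 (9.59%), against 3.37% and 5.87%. TATAAA was in 9.59% of member promoters, against 12.9% and 6.03%, and CCAAT in 43.8%, against 38.4% and 39.5%. None of these motifs contains another. Shown next are 3 member promoters with an NRF1 match before the start and no annotated exon base in the printed stretch. Each had the highest mean fold of such members in its complex. Other members with a match, such as Ndufb10 (35.1) and Atp5g3 (32.3), had higher mean folds than Ndufa11 (21.5) and Atp5h (24.6). The match in capitals is on the opposite strand. At Ndufa11 another match, on the gene's own strand, overlaps it. Cox6a1 is from chr5:115349050-115349089 and Atp5h from chr11:115420035-115420074, both on the minus strand, and Ndufa11 is from chr17:56717688-56717727 on the plus strand.
Cox6a1: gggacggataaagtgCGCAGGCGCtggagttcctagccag
Atp5h: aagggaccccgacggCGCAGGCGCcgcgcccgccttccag
Ndufa11: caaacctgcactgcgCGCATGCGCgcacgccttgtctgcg

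Among covered members, the 23 with an NRF1 match had a median highest fold of 21.4 and a median cover of 73.0%, and the 47 without had 18.9 and 73.4%. Median cover was 74.6% with and 72.1% without an ETS match, 90.3% (7 members) and 72.1% for YY1, 72.6% and 73.2% for TATAAA, and 75.9% and 63.9% for CCAAT. The median highest fold was 22 with and 20.2 without an ETS match, and 18.87 and 20.4 for YY1. It was 19.21 and 20.25 for TATAAA, and 17.35 and 21.45 for CCAAT. For YY1 and CCAAT, members with a match thus had the higher cover and the lower fold. A match marks letters in a window, not a bound site.

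The strongest peaks were found at complex V, complex IV and complex II genes. In CTR 1 the highest narrow fold was 60.4 at Atp5b, over a summit of 777 piled-up fragments. The other libraries gave 59.7, 49.8 and 43.7 at Atp5b, with 515, 496 and 558 fragments. Cox4i1 had 48.9, 42.1, 48.9 and 31.9, and Cox6a1 had 49.4, 46.5, 41.4 and 31.5, although the summit of the peak that touched Cox6a1 lay outside its window in all libraries. The medians were 18.2, 17.8, 18.6 and 15.7 for complex I subunits, 28.2, 28.9, 26.1 and 23.2 for complex IV and 25.6, 24.2, 27.6 and 20.8 for complex V. Assembly factors were lowest, at 10.1, 10.2, 11.7 and 10.6. The members' median of 21.3, 20.4, 21.1 and 17.7 corresponded to percentile 96.6, 96.0, 97.0 and 96.7 of all narrow peaks of the library. Taking the highest peak of a window lifts this percentile for any gene, and the median over all genes with a peak was 94.2, 93.3, 94.6 and 94.2. NPM1 KD 2 had the lowest median fold in the members and over all genes.

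**Figure D3:**
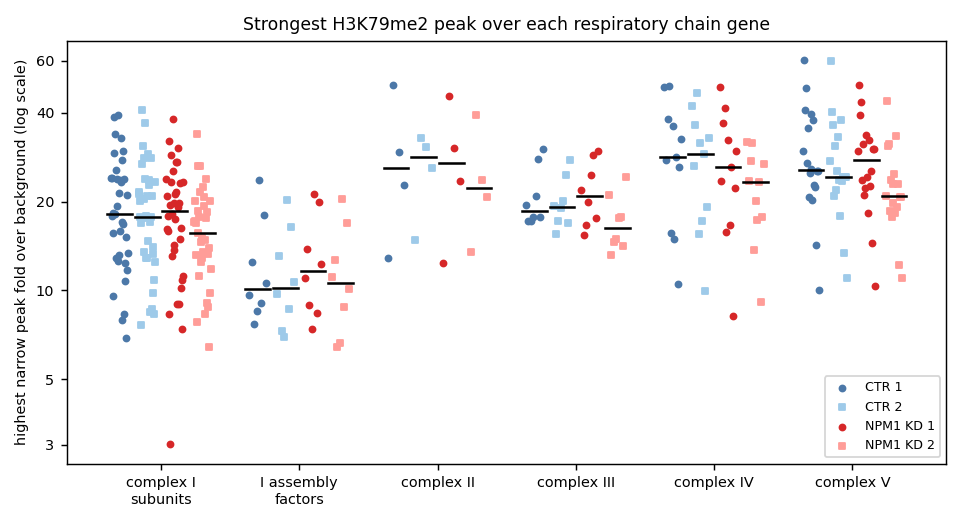
Highest narrow peak fold over local background on a log axis for each member with a peak, by complex and library, with black bars at the medians. The median of NPM1 KD 2 is the lowest in every class except the assembly factors, whose medians lie below those of the other classes in all 4 libraries.

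Cover around the start was highest inside the gene. At the annotated start 83.5%, 72.5%, 86.8% and 78.02% of members were under a broad peak, and 1 kb into the gene 89.0%, 89.0%, 90.1% and 89.0%. Over all genes the values 1 kb into the gene were 44.0%, 43.0%, 45.4% and 44.1%. At 5 kb into the gene, which lies beyond the end of the shortest members, 70.3%, 70.3%, 74.7% and 73.6% of members were still covered. Of 85 members with peaks in every library, 58 had more cover in the first 3 kb of the gene than in the 3 kb before it, 18 had equal cover and 9 had less. Of all 10915 genes with peaks in every library, 7928 had more, 1870 had equal cover and 1117 had less. The summit of the strongest peak inside the window lay at a median of 623 bp after the start in 81 members, against 1094 bp over 10799 genes. A single domain ran from the start past the gene end in all libraries at 32 of the 83 members with a domain at the start in each library, and 19 of the 32 were under 5 kb long. The same held at 1237 of 9209 genes with peaks in every library, and 635 of the 1237 were under 5 kb long.

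**Figure D4:**
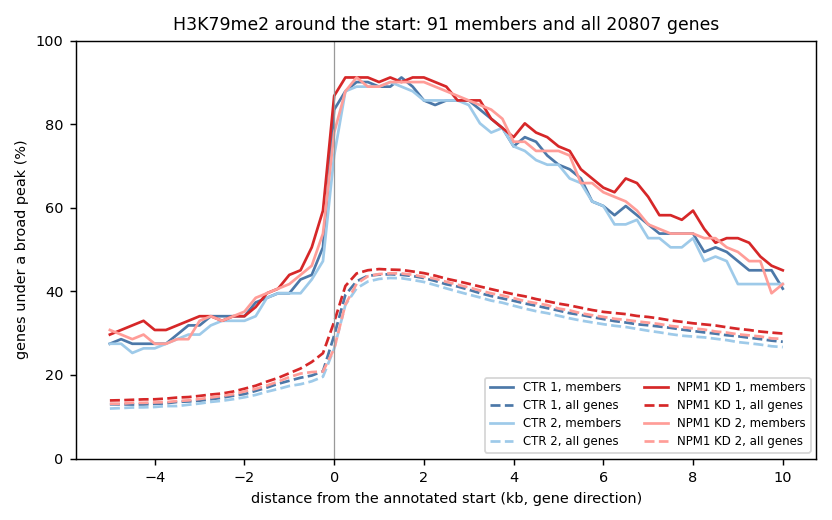
Percent of genes under a broad peak by distance from the annotated start in kb, in the direction of the gene, for 91 members (solid) and all 20807 genes (dashed) in each library. Members lie between 27.5 and 30.8 at 5 kb upstream and between 89.0 and 90.1 at 1 kb into the gene, and all genes between 12.0 and 13.9 and between 43.0 and 45.4.

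Many members share their promoter region with a gene on the opposite strand. An opposite-strand protein-coding start lay within 1 kb of the start at 33 members (36.3%), against 11.2% of all genes and 19.5% of genes covered in every library. Examples are Ndufs1 with Eef1b2 (translation elongation) 8 bp inside the gene, Sdhd with Timm8b (mitochondrial import) 98 bp upstream, and Atp5j with Gabpa (an ETS factor) 700 bp inside the gene. The 3 kb before the start were covered over a median of 100% at the 33 members and 6.08% at the other 52 covered members. Genes covered in every library showed the same split, 99.9% at 2123 genes with such a partner against 4.09% at 8792 genes without. The cover and the folds of these members cannot be assigned to 1 of the partner genes, as at Atp5j and Gabpa, which share the strongest peak of 20.3, 17.8, 18.3 and 18.3-fold. Leaving out all window parts under another protein-coding gene gave median member cover of 68.5% in CTR and 71.6% in NPM1 KD. No value over all genes is given for this measure. For whole windows with such a partner, the median of the 4-library mean cover was 85.8% at covered members. It was 54.1% at all genes covered in every library. Without a partner the values were 63.7% and 50.2%.

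For the comparison of NPM1 KD with CTR, covered length was tested with limma on log2 of covered length plus 1000 bp in 11518 genes covered in at least 1 library, 86 of them members. No member passed an adjusted p of 0.05 (Benjamini-Hochberg over all genes; lowest member value 0.248), where 0.00868% of genes did. At an unadjusted p under 0.05 there were 8 members and 1759 genes. The fitted change was positive in 69 members and negative in 12, with a median of 0.04 on the log2 scale. Over all genes tested it was positive in 9613 and negative in 1702, with a median of 0.08. The split of the members was 54 to 32 without CTR 2, 63 to 23 without NPM1 KD 1, and 47 to 21 within 3 kb of the start. No split of all genes is given for these settings, so the weaker split is not read as a trait of the members. The lower NPM1 KD value exceeded the higher CTR value in 39 members, or 45.3% of those tested, and in 47.0% of all genes tested. The reverse held in 2 members, or 2.33%, and in 2.76% of all. Both shares of the members were close to those of all genes tested. Broad peaks covered more of the genome in both NPM1 KD libraries than in either CTR library, and the part of this in the members' shift was not tested.

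Among members whose groups did not overlap, the largest rise was fitted at Ndufa10, an accessory subunit of the membrane arm, with 12513 and 11693 bp in CTR and 16641 and 16211 bp in NPM1 KD. Its log2 change was 0.41 ± 0.04 (SE), with an adjusted p of 0.25 in limma. Atp5s followed with 6377 and 5069 bp against 7164 and 7078 bp, a log2 change of 0.28. The higher CTR value of Atp5s lay nearer to the NPM1 KD values than to its own replicate. Ndufs1 had 22506 and 21709 bp against 25896 and 27069 bp (log2 change 0.25), and Uqcrc2 had 10841 and 9110 bp against 12050 and 11660 bp (0.23), and the higher CTR value of Uqcrc2 was likewise nearer to the NPM1 KD values than to its replicate. Ndufaf1, an assembly factor for the membrane arm, had 5850 and 6033 bp against 7112 and 7186 bp (0.23). Its domain reached 5613 and 5610 bp past the start in CTR and 6960 and 6867 bp in NPM1 KD. In the other direction Ndufa9, an accessory subunit near the ubiquinone site, had 12624 and 12501 bp against 11448 and 12181 bp (-0.08). Cox7a2l, a gene linked to supercomplex assembly, had 12632 and 12588 bp against 12579 and 12564 bp, a mean that fell by 38.5 bp. With 2 libraries a group the two-sided exact permutation test of a single gene cannot go below 0.33, and each of these 7 genes stood at that value.

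**Figure D5:**
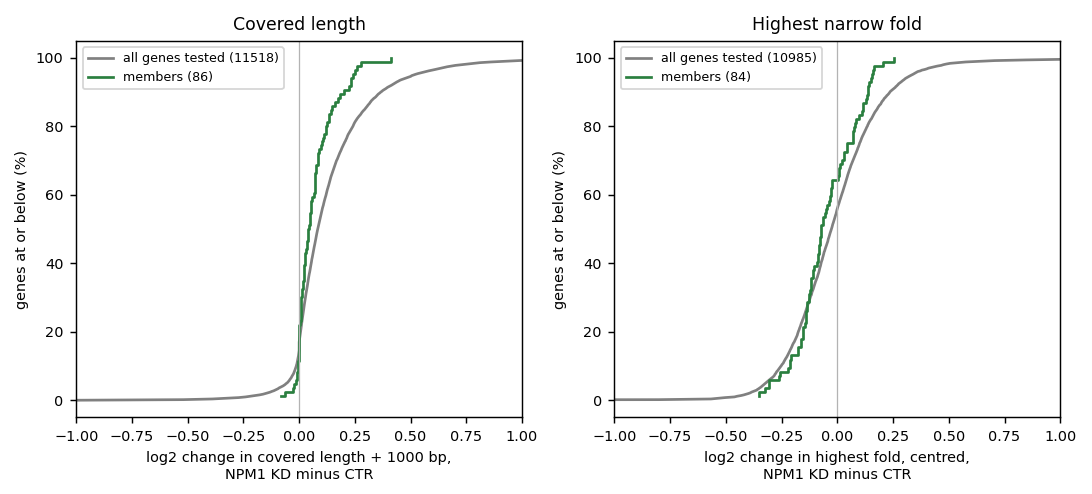
Cumulative percent of genes by log2 change, NPM1 KD minus CTR, in covered length (left) and in highest narrow fold (right), for members and all genes tested. The members lie between -0.08 and 0.41 in covered length and between -0.35 and 0.25 in fold, where 54 of 84 are below 0.

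The highest fold was tested in 10985 genes with a narrow peak in all libraries, 84 of them members, after centring each library on its median. No member passed an adjusted p of 0.05 (lowest 0.60) and 0.146% of genes did, 11 upward and 5 downward. At an unadjusted p under 0.05 there were 2 members, Cox6a1 and Atp5b, and 903 genes. The fitted change was negative in 54 members and positive in 30, with a median of -0.07 against -0.03 over all genes tested. The largest falls were fitted at Cox6c (-0.35), with 36.2 and 31.7 against 32.3 and 20.03, Cox6a1 (-0.35), and Atp5g3 (-0.33), with 39.7 and 33.1 against 33.6 and 22.8. At all 3 NPM1 KD 2 was the lowest library. Rises were fitted at Ndufaf1 (0.25), with 9.62 and 9.71 against 11.02 and 11.1, and at Uqcr10 (0.21), with 19.4 and 19.3 against 21.9 and 20.97. Ndufaf1 was thus among the members with the largest rises in both measures, and passed neither test.

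In the wider pathway, of the 12 measured tricarboxylic acid cycle genes, all were covered in every library, with a median mean cover of 70.1%. The groups did not overlap, with NPM1 KD higher, in 10 of them (83.3%, where 47.0% of all genes tested did so), none passed the limma threshold, and the median log2 change in covered length was 0.11. Among 14 transcription regulators of mitochondrial genes, 13 were covered in all libraries, and none passed either threshold. Ppargc1a, the coactivator that drives mitochondrial biogenesis in muscle and brown fat, had 0% in all 4 libraries, whereas its paralogue Ppargc1b had 80.5%, 79.2%, 82.2% and 78.3%. Nrf1 had 42.3%, 41.9%, 43.0% and 44.1%, Gabpa 37.4%, 33.0%, 47.8% and 47.9%, and Yy1 100% in each library. Esrra, an orphan nuclear receptor, had 95.7%, 93.5%, 100% and 94.8%, and Tfam, which packages mitochondrial DNA, had 71.3%, 63.9%, 72.1% and 81.9%. Cycs, the gene of cytochrome c, had 66.3% and 62.6% in CTR and 77.1% and 76.7% in NPM1 KD, without overlap, and did not pass the test. In the list of other assembly and carrier genes, 17 of 42 (40.5%, against the 47.0% of all genes) were above in NPM1 KD without overlap, none was below (2.76% of all genes), and none passed.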

How the data were processed

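H3K79me2 ChIP-seq peaks of 4 libraries (CTR and NPM1 KD, 2 each) were used; the inputs were not used here. Per the study's methods, the authors aligned reads to mm10 (GRCm38) with Bowtie2, removed reads of low mapping quality and called peaks per library with MACS2. The submitters' processing notes list Bowtie2 2.3.4.1 and MACS2 2.2.6, and the methods name another MACS2 release. Whether the input served as background is not given in the sources used here. The deposited lists hold fold enrichment (a ratio over local background), −log10 p and −log10 q, and a score of 10 times −log10 q. No read counts were analysed here.

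Windows came from GENCODE M21 on GRCm38. Genes were tested with limma (version 3.58.1, R version 4.3.3) for the log2 of covered length plus 1000 bp and for the log2 highest fold, centred per library, with Benjamini-Hochberg adjustment at 0.05 over all genes tested. Scripts were tested on simulated data. The limma p-values rest on the spread between 2 libraries a group, moderated across all genes tested. Tables were made with pandas 2.3.3, numpy 2.4.6 and scipy 1.17.1 under Python 3.11.15, and plots with matplotlib 3.10.9. Peaks of both libraries of a group that shared at least 1 bp made a common region.

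The members and lists were chosen with earlier results of these data known. Named genes are isoform pairs, core subunits, the 5 highest and 5 lowest covered, the largest changes among members whose groups do not overlap (5 each way), the 3 highest and 3 most changed folds either way, and listed regulators. Genes shown as examples of length, position or low marker cover, and those tied at full cover, and Ppargc1b, were chosen after their values were seen. Some genes that this rule names are not reported here.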

Additional observations from a re-analysis of the deposited data

How the results depend on the processing

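No member was called under any alternative. For covered length 1 gene was called; narrow lists, equal list sizes, 3 kb either side of the start and no filter on uncovered genes gave 0, −log10 q of at least 5 gave 22, and leaving out 1 library gave 0 to 0. For highest fold 16 genes were called (11 up, 5 down), 44 in broad lists (21 up, 23 down), 7 without centring (3 up, 4 down), and 37 to 101 when 1 library was left out, where a lone library was taken to vary like the other group. Summits inside the window, chosen after seeing the data, gave 12. With the replicate block covered length gave 0 genes and highest fold 24. Same-numbered libraries deviated together by r of 0.263 in covered length and 0.197 in highest fold, too few pairs to show pairing. The members' median change in covered length stayed between 0.007 and 0.053. In highest fold it was -0.074, -0.0111 in broad lists, -0.13 without centring, -0.0543 with summits inside the window, and -0.0645 to -0.0477 when 1 library was left out. Members with both NPM1 KD libraries above were 39, 19 within 3 kb of the start and 43 to 62 without 1 library. Without CTR 1 they were 62, where 73.1% of all genes were above, against 47.0% with all libraries. Members below were 2, 1 in narrow lists and 1 at −log10 q of at least 5. They were 5 within 3 kb of the start and 3 to 14 without 1 library. For the other alternatives no share of all genes is given here, so these counts are not read as a trait of the members. The median member cover in CTR was 65.4%, 62.9% in narrow lists, 63.0% at −log10 q of at least 5 and 68.5% outside other genes; in NPM1 KD it was 70.4%, 63.3%, 66.8% and 71.6%. The cause was not tested. Of 351 alternative values of single genes' covered length, 33 moved beyond the replicate spread and 25 changed sign, none of a called gene. Genes at an unadjusted p under 0.05 numbered 923 to 2284 for covered length (1759 in the report) and 282 to 1695 for highest fold (903), with the lowest counts within 3 kb of the start and without CTR 2.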
